A study of Mus musculus with 18 samples.

Results

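Endothelial genes were followed through prostate tissue of TRAMP mice with and without changes in Elac2. The 10 genes were Cd93, Pecam1, Cdh5, Kdr, Flt1, Tek, Tie1, Vwf, Esam and Emcn, each found as a single row by matching Ensembl IDs to symbols, of 55469 gene IDs in all. In the study, ventral plus lateral lobes of the prostate were dissected from male mice of the strain given as C56NL/6N, and their total RNA was sequenced as 18 libraries, 3 in each of 6 groups. Every mouse, the controls included, carried 1 copy of the TRAMP transgene, in which the probasin (Pb) promoter expresses SV40 T antigens in the prostate epithelium. WT-TRAMP mice had wild-type Elac2, KO-TRAMP mice were homozygous for an Elac2 deletion made with Pb-Cre, and A537T-TRAMP mice were homozygous throughout the body for the Ala537Thr change in ELAC2, an enzyme that trims the 3′ ends of precursor tRNAs. Each line was taken at 10 weeks and at 30 weeks of age. Pb-Cre acts in prostate epithelium, so that endothelial cells of KO-TRAMP mice are not its target, whereas those of A537T-TRAMP mice carry the variant. Libraries are called by the number in the deposited column headings. At 10 weeks these were 1 to 3 for the wild type, 7 to 9 for the knockout and 4 to 6 for the variant. At 30 weeks they were 10 to 12 for the wild type, 16 to 18 for the knockout and 13 to 15 for the variant.

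Endothelial cells line blood and lymph vessels, and new vessels grow when vascular endothelial growth factor (VEGF) acts on them. VEGF signals mainly through the receptor tyrosine kinase encoded by Kdr, while the product of Flt1 binds the same ligand with high affinity and limits it. Tek encodes the receptor for the angiopoietins and Tie1 its partner receptor, and both steady the vessel wall. Pecam1, Cdh5 (VE-cadherin) and Esam encode proteins of the junctions between endothelial cells, Emcn and Cd93 encode surface glycoproteins, and Vwf encodes von Willebrand factor, which endothelial cells store and secrete for platelet adhesion. Some members are not restricted to endothelium, since Pecam1 is also made by leukocytes and platelets, Cd93 by myeloid cells and Vwf by megakaryocytes.

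Endothelial genes share control by factors of the ETS family, and the upstream sequences of the VEGF receptors and the angiopoietin receptor show how unlike their promoters are. RefSeq promoter sequences of build GRCm38.p6 were matched for 5 of the 10 members, Kdr, Flt1, Tek, Tie1 and Emcn. The 250 bases before the RefSeq start of 3 of them follow, 5′ to 3′ on the strand of the gene, with each copy of AGGAAG or its reverse complement CTTCCT, a letter string that holds the ETS core, in capitals. Flt1 lies on the minus strand with the window chr5:147726012-147726261, Kdr on the minus strand with chr5:75978456-75978705, and Tek on the plus strand with chr4:94739039-94739288.
Flt1: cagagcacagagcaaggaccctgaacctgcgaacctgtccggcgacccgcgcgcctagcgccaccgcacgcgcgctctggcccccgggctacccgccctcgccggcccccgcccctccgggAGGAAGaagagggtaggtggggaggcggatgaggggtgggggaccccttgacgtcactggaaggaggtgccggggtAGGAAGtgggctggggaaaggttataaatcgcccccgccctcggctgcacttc
Kdr: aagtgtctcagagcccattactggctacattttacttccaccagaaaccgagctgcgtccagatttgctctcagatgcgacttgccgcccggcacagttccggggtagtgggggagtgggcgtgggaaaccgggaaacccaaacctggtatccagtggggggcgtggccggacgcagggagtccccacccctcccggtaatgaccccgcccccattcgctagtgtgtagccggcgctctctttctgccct
Tek: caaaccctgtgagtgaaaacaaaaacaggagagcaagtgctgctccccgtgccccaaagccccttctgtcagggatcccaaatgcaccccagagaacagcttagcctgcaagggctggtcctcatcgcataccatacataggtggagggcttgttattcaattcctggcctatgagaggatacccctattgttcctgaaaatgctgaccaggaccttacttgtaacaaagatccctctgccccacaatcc
Flt1 held 2 copies, which began 129 and 53 bases before the start, and Kdr and Tek held neither string. The shorter core within it, GGAA or its reverse complement TTCC, did occur in the Kdr and Tek windows. Emcn had 2 copies and Tie1 had 1. One or more copies stood in 3 of the 5 member windows and in 29.5% of 32851 promoter windows of the same length, so that a match is common. AGATAA, the GATA string, searched on both strands, was in 0 of the 5 windows and in 9.99% of all. The share of G and C was 70.4% for Flt1, 61.6% for Kdr and 51.2% for Tek, beside a median of 52.4% over all windows. A match is a string of letters and not a measured binding site.

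All 10 members were detected in all 18 libraries. Recovered reads per member and library ranged over the 4 tables from 6 for Emcn to 3327 for Vwf, in libraries of 9380174 to 14830104 reads, so that counting error alone is large for Emcn, Tie1 and Tek at 10 weeks. Levels of different genes were compared per length, as CPM (reads scaled to a common library total of 1e6) divided by the length of the principal mRNA in kilobases. By the median over the 18 libraries, with WT-TRAMP taken from the tables that hold KO-TRAMP, Pecam1 (2.87) and Esam (2.64) were highest, followed by Emcn (1.44), Kdr (1.3), Cdh5 (1.25) and Cd93 (1.22), and Flt1 (0.932), Vwf (0.777), Tek (0.773) and Tie1 (0.743) were lowest. The range over the libraries was wider than the step between neighbours in this order, as for Pecam1 (0.685 to 9.08) and Esam (1.46 to 4.23). The place of Emcn rested on the mRNA taken, since with all annotated exons counted as its length it fell from place 3 to place 10.

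The libraries were total RNA from dissected lobes, and they differed in their tissue. In bulk RNA, fewer cells of a type and less RNA per cell cannot be told apart. The labels state that seminal vesicles, connective and adipose tissue were removed, yet 8 genes of seminal vesicle secretion summed to between 1.06 and 90508 CPM over the libraries, with the highest value in library 5. Neuroendocrine markers stood high in libraries 10, 12, 17 and 18 and low in libraries 11 and 16. Epithelial markers summed to between 1227 and 2802 CPM in every library, as the label prostate implies, and no member was at 0 anywhere. Elac2 itself was measured at 249 to 267 normalized counts in KO-TRAMP at 30 weeks and at 251 to 320 in WT-TRAMP, with no call in either line at either age (limma, lowest adjusted p = 0.522). A gene-level count over all exons cannot check the deletion of a single floxed exon in the epithelial part of a tissue. The 3 WT-TRAMP libraries of each age serve both lines, and p-values measure the spread between libraries only.

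KO-TRAMP prostates at 30 weeks had higher mean levels of all 10 endothelial genes than WT-TRAMP prostates of that age, and Cd93 was the member that passed the test. The mean normalized count was about 3.61-fold higher for Cd93, 3.26-fold for Emcn, and between 1.91-fold and 2.44-fold for Cdh5, Tie1, Pecam1, Kdr and Tek. Normalized counts are the estimated reads of a gene divided by 1 size factor per library, and each gene was tested with limma on log2(normalized count + 1) with Benjamini-Hochberg adjustment over all genes tested and a threshold of 0.05. Of the 10 members 1 passed, Cd93, where 0.213% of 16900 genes tested passed. All 10 members had a positive difference, with a median of 1.00 on the log2 scale beside 0.01 over all genes, and 7 had an unadjusted p under 0.05 for higher, as did 7.7% of all genes. In 7 members every KO-TRAMP library lay above every WT-TRAMP library, as in 10.8% of all genes.

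**Figure D1:**
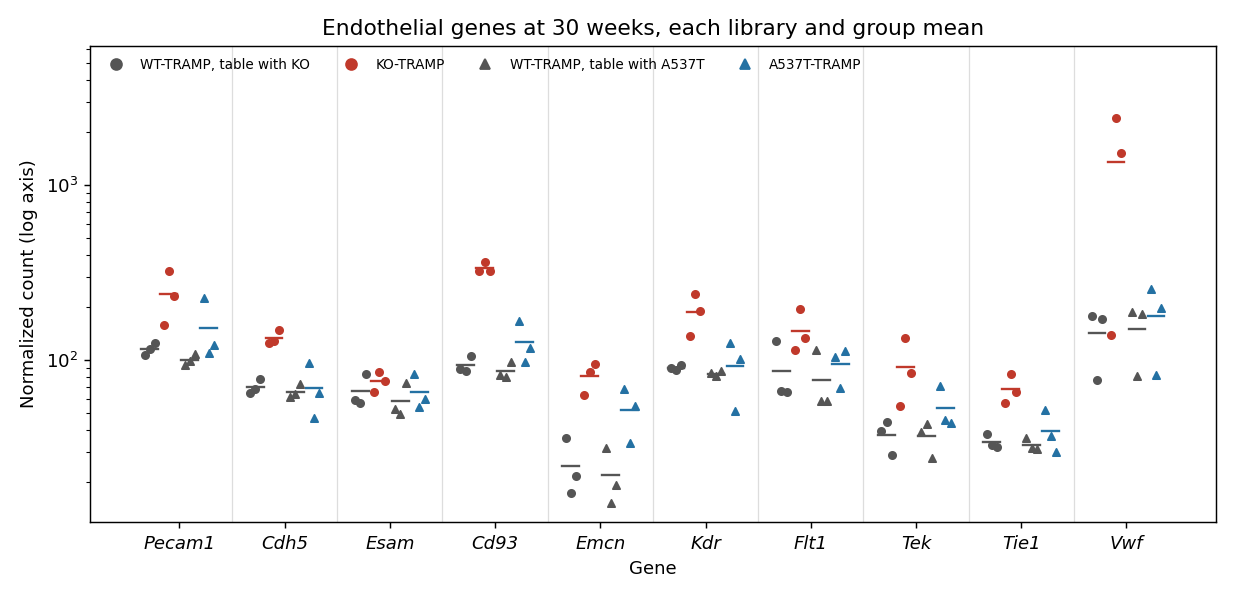
Normalized counts (log axis) of the 10 endothelial genes at 30 weeks, with 1 point per library and a line at the mean of the 3 libraries of a group; circles come from the table of KO-TRAMP and WT-TRAMP, triangles from the table of A537T-TRAMP and WT-TRAMP. KO-TRAMP points stand clear of WT-TRAMP points for Cd93, at 323 to 366 against 86.4 to 106, and the KO-TRAMP points of Vwf lie at 139.9, 1519 and 2425.

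Cd93 (ENSMUSG00000027435.8, chromosome 2, 148436640 to 148443563, minus strand, GRCm38), a C-type lectin-like receptor of endothelial junctions and angiogenesis, was the most even of the 10. Libraries 10, 11 and 12 of WT-TRAMP had 88.4, 86.4 and 106 normalized counts, and libraries 16, 17 and 18 of KO-TRAMP had 323, 366 and 324. The KO-TRAMP libraries differed little among themselves, and the lowest of them stood far above the highest WT-TRAMP library. On the log2 scale the difference was 1.84 (SE 0.15, limma adjusted p = 0.0333), rank 8 by p among the 36 genes called, and 3.43% of the genes tested had a larger difference. edgeR on the recovered reads also called it (adjusted p = 0.0377), where it called 0.0888% of genes.

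The call of Cd93 held without library 16 and was lost without any of the others, although its difference hardly moved. Without library 10, 11, 12, 17 or 18 its limma adjusted p was 0.185, 0.102, 0.237, 0.0665 or 0.341, with a difference between 1.78 and 1.94, and without library 16 it was 0.00767. Calls changed over all genes in the same fits. Limma called 0 genes without library 10, 12 or 18, and 0 higher and 2 lower without library 11. It called 11 higher and 2 lower without library 17, and 18.1% of 16950 genes without library 16. Macrophage genes were also higher in this comparison. The 8 listed macrophage genes summed to 349 to 390 CPM in KO-TRAMP and 130 to 157 CPM in WT-TRAMP. In 7 of 8 every KO-TRAMP library lay above every WT-TRAMP library, as in 10.8% of all genes. Limma called Lyz2 (2.00, adjusted p = 0.0135) and C1qb (1.09, adjusted p = 0.0415), where it called 0.213% of all genes. At 10 weeks the macrophage median was 0.15 in KO-TRAMP, beside 0.55 for Cd93. In A537T-TRAMP of that age it was -0.07, with 5 of 8 genes negative, beside 0.95 for Cd93 (SE 0.47, limma adjusted p = 0.600). The groups overlapped for Cd93 in both lines at 10 weeks, and neither Cd93 nor any listed macrophage gene was called. The part of myeloid cells in the Cd93 result was not tested.

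Among the junction genes, Cdh5, the adhesion molecule that holds endothelial cells together, also had little spread within the groups. In the same library order it measured 64.9, 68.1 and 77.5 in the wild type against 124, 129 and 149 in the knockout. The groups did not overlap and the log2 difference was 0.93 (SE 0.18, limma adjusted p = 0.177). Pecam1, a homophilic adhesion receptor, measured 107, 115 and 125 against 158, 322 and 233, with a difference of 0.97 (SE 0.27, adjusted p = 0.327). Here library 16 stood nearer to the WT-TRAMP libraries than libraries 17 and 18 did. Esam, a junctional member of the immunoglobulin superfamily, differed least, at 59.3, 56.6 and 83.2 against 65.8, 85.3 and 76.2, and its groups overlapped (0.20, SE 0.24, adjusted p = 0.674). The sialomucin gene Emcn, which marks capillaries and veins, measured 35.8, 17.3 and 21.7 in WT-TRAMP and 62.8, 86.0 and 95 in KO-TRAMP. Its groups did not overlap, and its difference of 1.71 (SE 0.35, adjusted p = 0.213) was the second largest of the members with separate groups, after Cd93.

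The receptor tyrosine kinases had differences of similar size, none of them called by limma. Kdr measured 90.6, 87.3 and 93.5 in WT-TRAMP, with an SD of 3.1, and 137, 239 and 191 in KO-TRAMP. Its log2 difference was 1.02 (SE 0.23, limma adjusted p = 0.253). Tek measured 39.2, 44.1 and 28.5 against 54.5, 133 and 84.6, and Tie1 38.0, 32.6 and 31.9 against 56.6, 83.1 and 65.8. All of these separated the groups, with library 16 the lowest and library 17 the highest KO-TRAMP library each time. Flt1 did not separate them, because WT-TRAMP library 10 (129) lay above KO-TRAMP library 16 (114) while libraries 11 and 12 were at 66.2 and 66.1 and libraries 17 and 18 at 195 and 134. The differences of Tek, Tie1 and Flt1 were 1.19, 0.97 and 0.79, with limma adjusted p of 0.336, 0.299 and 0.378.

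Vwf had the largest mean difference and the most uneven values. Libraries 10, 11 and 12 had 178, 76.8 and 172 normalized counts, and libraries 16, 17 and 18 had 139.9, 2425 and 1519. Library 16 thus lay within the WT-TRAMP range, and the groups overlapped. The log2 difference of 2.58 had a standard error of 1.07 (limma adjusted p = 0.369). Vwf took 59.7% and 52.9% of all member reads in libraries 17 and 18 and between 8.38% and 24.5% in the other 16 libraries. The other members did not follow this split to that extent, and Cd93 was as high in library 16 as in library 18.

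Neuroendocrine markers were split in the same way as Vwf within each group of these 6 libraries. Over the 6 libraries the markers and Vwf had the same order. The mean log2 level of 6 such genes was 10.96 and 10.33 in libraries 17 and 18 and 1.98 in library 16, and in WT-TRAMP it was 8.0, 1.88 and 7.05 in libraries 10, 11 and 12. Library 11, with the lowest neuroendocrine level of WT-TRAMP, also had the lowest Vwf there. Library 16, with a marker level near that of library 11, had Vwf at 139.9, between libraries 11 and 12. In A537T-TRAMP at 30 weeks Vwf reached 256, with marker levels between 2.90 and 3.80. Megakaryocyte and platelet genes summed to 3.65 to 5.33 CPM in KO-TRAMP and 1.06 to 3.14 CPM in WT-TRAMP, and 2 of the 6 were at 0 in all of these libraries. Whether cells other than endothelium account for the Vwf reads was not tested.

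**Figure D2:**
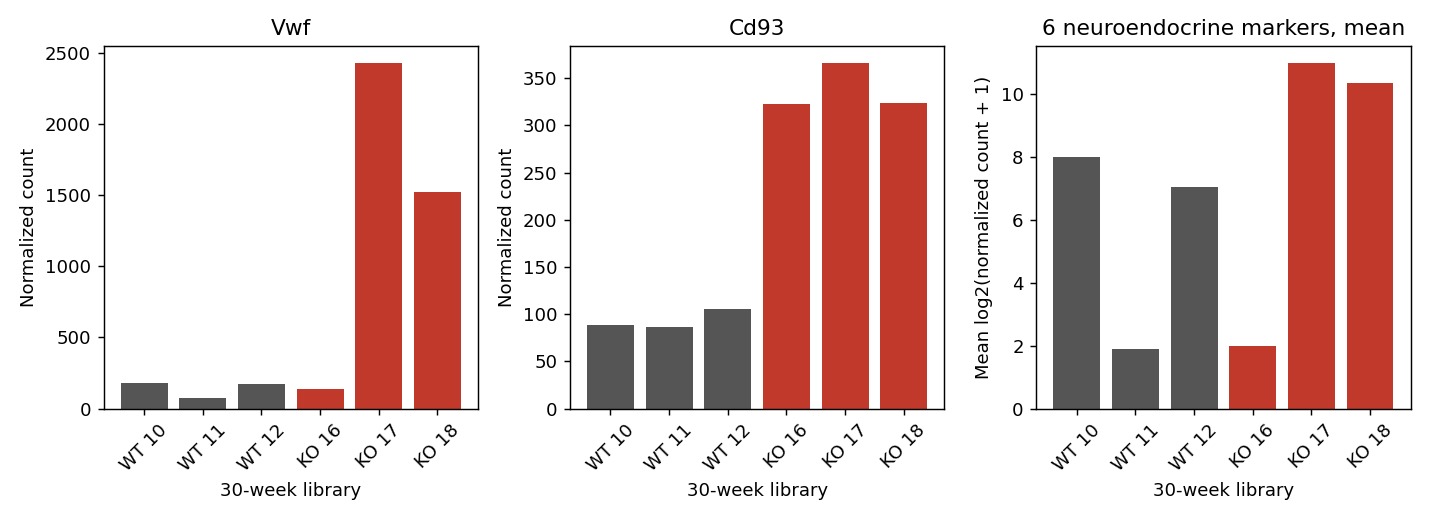
Bars show the normalized count of Vwf, the normalized count of Cd93 and the mean log2(normalized count + 1) of 6 neuroendocrine marker genes in each 30-week library of WT-TRAMP (grey, libraries 10 to 12) and KO-TRAMP (red, libraries 16 to 18). Vwf and the neuroendocrine markers are low in library 16 and high in libraries 17 and 18, whereas Cd93 is between 323 and 366 in all KO-TRAMP libraries.

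How many members passed at 30 weeks in KO-TRAMP depended on the tool and on library 16. DESeq2 on the recovered reads called 6 members, Cd93, Cdh5, Emcn, Kdr, Pecam1 and Vwf, where it called 4.76% of genes. Without library 16 limma called 8, all but Esam and Flt1, but it then called 18.1% of 16950 genes, so that calls became more frequent over the whole table. Library 16 set alone against the WT-TRAMP libraries, chosen after seeing the data, gave a median of 0.58 with every member positive, from 0.01 for Esam to 1.78 for Cd93. The spread of a lone library could not be measured.

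Further endothelial genes had differences of the same sign at 30 weeks in KO-TRAMP. Of 17 genes listed for endothelial surfaces and junctions 15 passed the filter on low values, and all 15 had positive differences with a median of 0.99, 9 of them without overlap and 0 called by limma, where 8 had an unadjusted p under 0.05. Over all genes 10.8% had every KO-TRAMP library above WT-TRAMP, and 7.7% had an unadjusted p under 0.05 for higher. The sphingosine 1-phosphate receptor gene S1pr1, which serves barrier function, went from 28.7 ± 1.8 to 70.8 ± 5.9 normalized counts (SD, n = 3), a log2 difference of 1.27 (limma adjusted p = 0.139). Cd34, a sialomucin of capillaries and of some stromal cells, went from 94.1 ± 20.3 to 305 ± 110 (1.64, adjusted p = 0.17). Mmrn2, whose product in the vessel matrix binds CD93, had a difference of 1.83 (adjusted p = 0.244) and Ecscr, a regulator of endothelial migration, one of 1.04 (adjusted p = 0.276).

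Ligands and partner receptors of the VEGF and angiopoietin pathways were measured in the same table. All 11 passed the filter, 9 had positive differences, the median was 1.04 and 0 were called by limma. The ligand Vegfa measured 522 (range 497 to 551) in WT-TRAMP and 619 (518 to 719) in KO-TRAMP, with a log2 difference of 0.24 (SE 0.15, adjusted p = 0.464). Angpt2, an angiopoietin that sprouting endothelium releases, ranged from 28.8 to 221 in KO-TRAMP and from 25.1 to 40.3 in WT-TRAMP (1.71, SE 0.77, adjusted p = 0.384). The lymphatic receptor gene Flt4 (1.04), the co-receptor gene Nrp2 (1.05), the phosphatase gene Ptprb (0.68) and the ligand gene Vegfd (1.23) had the smallest p of the list and separate groups, with limma adjusted p between 0.333 and 0.364. Every KO-TRAMP library lay above WT-TRAMP in 10.8% of all genes.

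Transcription factor and Notch pathway lists held genes of both directions in KO-TRAMP at 30 weeks, and limma called 0 of either. Among 6 tested factors the median was 0.73. The ETS factor gene Fli1 had a difference of 0.81 (adjusted p = 0.327), Ets1 one of 0.80 (adjusted p = 0.356) and Erg, at 11.3 ± 11.5 and 22.3 ± 11.2 normalized counts (SD, n = 3), one of 1.2 (adjusted p = 0.486). Gata2, which prostate epithelium also makes, was at 852 ± 75.1 in WT-TRAMP and 399 ± 98.0 in KO-TRAMP (-1.12, adjusted p = 0.136). In the Notch and tip cell list, 9 of 10 tested genes were positive with a median of 0.75. The apelin receptor gene Aplnr (1.86, adjusted p = 0.136), its ligand Apln (2.35, adjusted p = 0.362) and the tip cell gene Esm1 (2.23, adjusted p = 0.368) were higher in the mean, and Notch1 was lower (-0.72, adjusted p = 0.345).

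Activation, lymphatic and mural lists completed the vessel genes in this comparison. The leukocyte adhesion genes Vcam1 and Sele had differences of 1.07 (limma adjusted p = 0.327) and 3.51 (adjusted p = 0.338), Sele from a mean of 1.1 to 24.4 normalized counts. Sele thus passed the filter on low values only through the KO-TRAMP libraries. Lyve1, a hyaluronan receptor of lymphatic endothelium and of some macrophages, measured 11.6 ± 3.4 in WT-TRAMP and 71.4 ± 11.4 in KO-TRAMP (SD, n = 3), a difference of 2.55 (adjusted p = 0.0719), and Pdpn had one of 1.2 (adjusted p = 0.307). Of 7 tested pericyte genes 3 did not overlap, the median was 0.78 and 0 were called, with Pdgfrb at 1.29 (adjusted p = 0.224). Fibroblast genes had no overlap in 8 of 8 and 2 calls by limma (median 1.75), with summed levels of 836 to 1015 CPM in KO-TRAMP and 269 to 305 CPM in WT-TRAMP. Smooth muscle genes had a median of 0.05, and adipocyte genes had one of -3.43, with 1 of 7 called lower (Ucp1, the uncoupling protein of brown fat). Skeletal muscle genes had a median of 2.21, with 3 of 7 without overlap and 2 called higher, the myosin heavy chain genes Myh1 (2.68, limma adjusted p = 0.0401) and Myh4 (6.03, adjusted p = 0.045), and their mean log2 level was 5.60 to 6.49 in KO-TRAMP and 3.53 to 3.85 in WT-TRAMP. Erythrocyte genes summed to 24.4 to 54.1 CPM against 15.3 to 16.6 CPM, all 5 positive and 0 called. Over all genes 10.8% had every KO-TRAMP library above WT-TRAMP, and limma called 0.213% in either direction. The part of these tissue differences in the endothelial values was not tested.

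At 10 weeks KO-TRAMP prostates showed no member past the threshold. Limma called 0 of the 10 members and 0.0129% of 15451 genes. With edgeR 0 members and 0 genes were called, and with DESeq2 0 members, where it called 40 genes higher and 41 lower. By limma 0 members had an unadjusted p under 0.05 for higher, beside 3.71% of genes. The differences were positive for 9 members with a median of 0.50 beside -0.01 over all genes, and in 1 member, Kdr, every KO-TRAMP library stood above WT-TRAMP, as in 5.77% of genes. Kdr measured 36.7, 37.5 and 20.9 in libraries 1 to 3 of the wild type and 38.7, 49.9 and 95.5 in libraries 7 to 9 of the knockout, with library 7 close to the controls and library 9 furthest from them. The log2 difference of Kdr was 0.87 (SE 0.40, adjusted p = 0.743), that of Tie1 0.82 (SE 0.40) and that of Flt1 0.71 (SE 0.52). Cdh5 had the only negative difference, at -0.12 (SE 0.36, adjusted p = 0.966). Its values of 49.0, 30.0 and 34.1 in WT-TRAMP and 21.6, 37.2 and 47.8 in KO-TRAMP overlapped.

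Cd93 overlapped between the groups at this age. In that library order it measured 73.4, 55.0 and 24.2 against 45.0, 65.6 and 107, with a log2 difference of 0.55 (SE 0.46, limma adjusted p = 0.864). Library 7 was the lowest KO-TRAMP library for all 10 members, and library 9 was the highest for 9, all but Vwf. Pecam1, at 49.8, 62.5 and 26.4 against 45.9, 73.4 and 80.8, and Vwf, at 28.9, 33.7 and 66.1 against 30.6, 63.7 and 63.4, also overlapped. The 10 members summed to 25.2, 42.8 and 58.0 CPM in libraries 7, 8 and 9, beside 30.1, 30.4 and 23.0 CPM in libraries 1, 2 and 3. Smooth muscle genes summed to 885 to 1403 CPM in KO-TRAMP and 480 to 783 CPM in WT-TRAMP, and library 9 also held 16282 CPM of seminal vesicle genes. Their part in the endothelial values was not tested. Vegfa (-0.11) and Angpt2 (-0.53) were not called either, and Erg was below the filter on low values with at most 10.1 normalized counts.

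**Figure D3:**
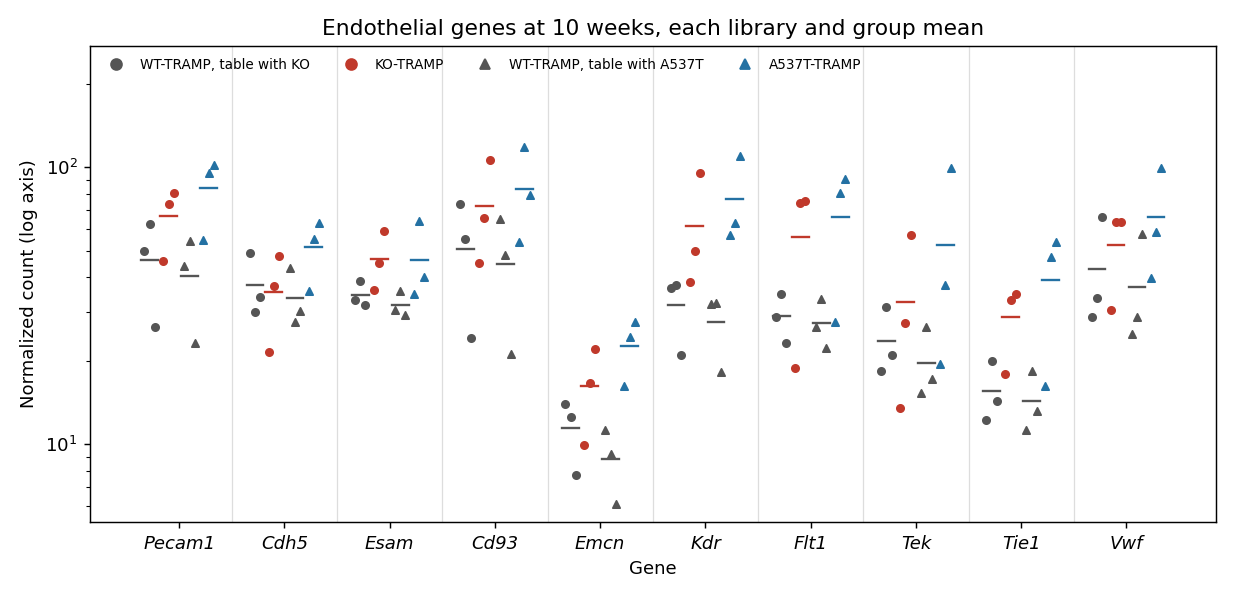
Normalized counts (log axis) of the 10 endothelial genes at 10 weeks, with 1 point per library and a line at the mean of the 3 libraries of a group; circles come from the table of KO-TRAMP and WT-TRAMP, triangles from the table of A537T-TRAMP and WT-TRAMP. The groups overlap for most genes, and Kdr is the gene in which both mutant lines lie above WT-TRAMP in every library.

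A537T-TRAMP prostates at 10 weeks had higher mean levels of all 10 members, and none passed the threshold. The median log2 difference was 1.08 beside -0.01 over all genes. Limma called 0 of the 10 members and 0.00648% of 15438 genes, and its adjusted p-values of the members were between 0.600 and 0.624. With edgeR 0 members and 0 genes were called, and with DESeq2 0 members, where it called 139 genes higher and 9 lower. An unadjusted p under 0.05 for higher was reached by 4 members, Kdr, Emcn, Pecam1 and Tie1, and by 5.07% of genes. In 3 members, Kdr, Pecam1 and Emcn, the groups did not overlap, as in 6.92% of genes in that direction. Kdr measured 32.1, 32.2 and 18.2 in libraries 1 to 3 and 57.0, 63.0 and 110.1 in libraries 4 to 6, a difference of 1.43 (SE 0.37). Pecam1 measured 44.2, 54.1 and 23.2 against 54.5, 95 and 102, a difference of 1.06 (SE 0.40). In Pecam1 the margin between library 2 and library 4 was under 1 normalized count. Emcn measured 11.2, 9.2 and 6.1 against 16.3, 24.3 and 27.5, the lowest counts of the members, with a difference of 1.27 (SE 0.46). Its WT-TRAMP mean of 8.84 was below the filter of 10, so that Emcn was tested only because of its A537T-TRAMP mean of 22.7.

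Libraries 5 and 6 carried most of this difference. Flt1 measured 26.5, 33.4 and 22.2 in WT-TRAMP and 27.7, 80.7 and 90.6 in A537T-TRAMP, and Tie1 11.2, 18.4 and 13.1 against 16.3, 47.5 and 53.9. In both genes library 4 lay among the WT-TRAMP libraries. Tek was highest by far in library 6, at 99.8, with 19.5 and 37.6 in libraries 4 and 5 and 15.3, 26.5 and 17.2 in WT-TRAMP. Cd93 measured 65.1, 48.4 and 21.2 in WT-TRAMP and 53.7, 118 and 79.1 in A537T-TRAMP (0.95, SE 0.47, limma adjusted p = 0.600). Vwf measured 24.9, 28.8 and 57.6 against 39.9, 58.6 and 99.8, and Cdh5 43.4, 27.6 and 30.3 against 35.8, 55.3 and 63.1. Esam had the smallest difference here too, at 30.5, 35.7 and 29.3 against 35.0, 64.1 and 40.1 (0.49, SE 0.32). Library 4 alone against WT-TRAMP, a fit chosen after seeing the data, gave a median of 0.20, with all 10 positive and Kdr the largest at 1.07. The spread of a lone library could not be measured.

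Other tissue genes were higher in the same libraries. Seminal vesicle genes summed to 487, 90508 and 12468 CPM in libraries 4, 5 and 6 and to between 1.83 and 4.59 CPM in WT-TRAMP. Smooth muscle genes summed to 1163, 2855 and 1780 CPM against 463 to 754 CPM, without overlap in 10 of 10 genes and with a median difference of 1.59, larger than that of the endothelial genes. Pericyte genes had a median of 0.89 and fibroblast genes one of 0.54, and limma called 0 of each. Among the further endothelial genes all 11 tested were positive with a median of 1.11, 7 without overlap and 0 called. Robo4 (1.59), Podxl (1.54), Cd34 (1.2) and Clec14a (1.85) had the smallest p of them. Over all genes 6.92% had every A537T-TRAMP library above WT-TRAMP, and limma called 0.00648%. Vegfa (-0.15) and Angpt2 (-0.24) had negative differences that were not called. The part of attached muscle or seminal vesicle tissue in the endothelial values was not tested.

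At 30 weeks A537T-TRAMP was closer to WT-TRAMP. Limma called 0 members and 0 of 16261 genes (0.0%). With edgeR 0 members and 0 genes were called, and with DESeq2 0 members, where it called 85 genes higher and 80 lower. All 10 members had positive differences with a median of 0.29 beside 0.00 over all genes, 1 member, Emcn, had an unadjusted p under 0.05, beside 3.98% of genes, and 3 members did not overlap, beside 7.36% of genes. Emcn measured 31.6, 15.2 and 19.2 in libraries 10 to 12 and 68.0, 33.4 and 54.8 in libraries 13 to 15, a difference of 1.21 (SE 0.39, adjusted p = 0.666). Pecam1 (0.53) and Tek (0.52) were the other members without overlap. Pecam1 measured 93.8, 98.6 and 108 against 227, 109.7 and 122, so that library 14 cleared the controls by about 2 normalized counts. Library 13 was the highest A537T-TRAMP library for 9 of the 10 members.

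Cd93 in A537T-TRAMP at 30 weeks overlapped with its controls. It measured 82.2, 79.8 and 98.1 in WT-TRAMP and 167, 97.8 and 118 in A537T-TRAMP, a log2 difference of 0.52 (SE 0.23, limma adjusted p = 0.702). Vwf measured 189, 81.6 and 182 against 256, 82.3 and 198, so that both groups held 1 low library. Cdh5 (0.01, SE 0.28) and Kdr (0.05, SE 0.32) had differences far within their errors. Of the further endothelial genes 13 of 15 were positive with a median of 0.47 and 0 called, and Lyve1 had a difference of 2.08 (adjusted p = 0.436). Fibroblast genes had a median of 0.85, macrophage genes one of 0.25 and adipocyte genes one of -3.95. Vegfa (-0.00), Angpt2 (-0.45) and Erg (-0.05) were not called.

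**Figure D4:**
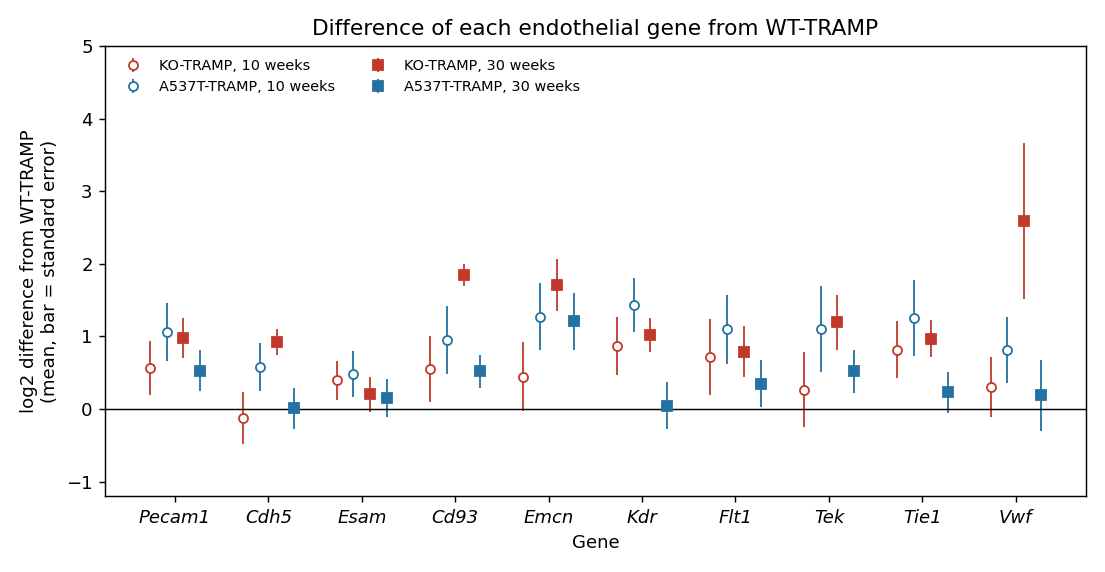
Log2 difference of each endothelial gene from WT-TRAMP of the same age, with its standard error as a bar, for KO-TRAMP (red) and A537T-TRAMP (blue) at 10 weeks (open circles) and 30 weeks (filled squares); both lines of an age share their WT-TRAMP libraries. Nearly all points lie above 0, the KO-TRAMP point of Cd93 at 30 weeks (1.84) has the smallest bar and that of Vwf (2.58) the largest.

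The difference of each line at 30 weeks was set against its difference at 10 weeks in a single fit of the 12 libraries concerned, as an interaction of line and age. For KO-TRAMP 9 of 10 members had the larger difference at 30 weeks, with a median change of 0.67, and limma called 0 members and 0 of 16431 genes (0.0%). An unadjusted p under 0.05 was found for 3 members, Cdh5 (1.05, SE 0.41), Cd93 (1.29, SE 0.54) and Emcn (1.27, SE 0.56), beside 13.1% of genes, and the lowest adjusted p of a member was 0.338. Without library 16 Vwf was called (3.53, adjusted p = 0.0108), where 11.8% of 16456 genes were. For A537T-TRAMP all 10 members had the smaller difference at 30 weeks, with a median change of -0.57. Limma called 0 members and 0 of 15941 genes (0.0%), and 1 member, Kdr (-1.38, SE 0.51, adjusted p = 0.721), had an unadjusted p under 0.05, beside 6.36% of genes.

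Levels of the set in CPM give the order of the groups. The tables were normalized separately, so that levels from different tables and ages were set side by side without a test. At 10 weeks the 10 members summed to 27.8 ± 4.2 CPM in the wild type, 42.0 ± 16.4 in the knockout and 51.9 ± 18.1 in the variant (SD, n = 3 each). In the same order the sums at 30 weeks were 65.9 ± 9.2, 249 ± 135 and 81.8 ± 26.9. Without Vwf the KO-TRAMP sum at 30 weeks was 124 ± 28.4 CPM beside 53.5 ± 4.2 in WT-TRAMP, so that Vwf made up much of its size and spread. Ordered by the mean of all 10 members, each group overlapped in its range with the next, down to the knockout at 30 weeks (107 to 376 CPM) and the variant at that age (54.7 to 108 CPM). Without Vwf the knockout (94.9 to 152 CPM) and the variant (47.5 to 86.3 CPM) at 30 weeks did not overlap.

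Members varied together from library to library within a group. Each library's deviation from its group mean was correlated, over the 18 libraries, with the mean deviation of the other 9 members, and Pearson's r was between 0.54 for Vwf and 0.86 for Pecam1. Cd93, at 0.65, was the second lowest. Genes outside the lists were correlated with the mean deviation of all the members together. Only genes with a mean of at least 100 normalized counts were taken, so that genes of lower level could not appear. The median r over the 9552 genes compared was -0.11. Most like the members were Cavin1 (0.94), which builds caveolae, Plpp3 (0.90) and Pde8b (0.88). Next came Col4a5 (0.88), a basement membrane collagen, and Col6a1 (0.86), a microfibrillar collagen. These points share their library, its depth and its tissue make-up, and the values are a description. In KO-TRAMP at 30 weeks Cavin1 had a difference of 0.40 (limma adjusted p = 0.492) and Col6a1 one of 0.86 (adjusted p = 0.188), below that of Cd93.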

How the data were processed

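The authors trimmed reads with Trim Galore 0.4.1 and cutadapt 1.18, aligned them with STAR 2.7.3a to GRCm38.p6 masked for nuclear copies of mitochondrial sequence, quantified genes with Salmon and normalized with DESeq2 1.26. They deposited 4 tables of normalized counts, a signal equal to the estimated count divided by 1 size factor per library, each with 6 libraries. Whole numbers were recovered from the steps (100% of values within 0.001) and are called reads here, with 9380174 to 14830104 per library. They are estimates that depend on the table. In the shared WT-TRAMP libraries 30.9% to 37.6% of detected genes had the same number in both tables. Vwf in library 11 had 80 in the table with KO-TRAMP and 91 in the table with A537T-TRAMP. Column headings give no group, and columns found in both tables of an age were taken as WT-TRAMP. The deposited tables of the authors' own comparisons (shrunken log2 fold changes, s-values) were not used.

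Each line was compared with WT-TRAMP within its table by limma 3.58.1 (trend, R 4.3.3), two-sided, with Benjamini-Hochberg adjustment. Values were log2(normalized count + 1), and genes below a mean of 10 over all libraries of a fit were left out. A gene low in 1 group could thus pass through the other. The log2 scale used understates changes of low genes. The interaction had an intercept per table. Alternatives were a pseudocount of 5, no filter, a mean of at least 50, TMM scaling, edgeR 4.0.16 and DESeq2 1.42.0 on recovered reads, and leaving out each library. The fits were tested on simulated data. All members were named; of other lists, up to 4 genes with the smallest p, with Vegfa, Angpt2 and Erg throughout. Members and lists were chosen with earlier results of these data known. Gene coordinates are GENCODE positions of an earlier release than the authors' own.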

Additional observations from a re-analysis of the deposited data

How the results depend on the processing

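No paired analysis was possible because the column headings carry no replicate number within a group. Of 919 alternative values, 717 for single members kept their direction and side of the threshold, and 27 for single members changed sign. A further 145 were counts equal or close to the main count, or medians that moved by less than the mean SD between libraries of a group. For KO-TRAMP at 30 weeks the count of 1 called member became 6 with DESeq2, and without libraries 17 and 18 the median fell to 0.58. Leaving out 1 library gave 0 to 8 called members, with 8 without library 16, where 18.1% of 16950 genes were called. The count was 0 without library 10, 11, 12, 17 or 18, where at most 11 genes were called higher. The adjusted p of Cd93 stayed between 0.0223 and 0.0377 over the pseudocount, filters, TMM scaling and edgeR. For A537T-TRAMP at 10 weeks the median was 0.20 without libraries 5 and 6. These pairs were left out after seeing the data. The KO-TRAMP interaction count ranged from 0 to 1 over the libraries left out, with 1 without library 16.

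Signs changed when a library was left out, over these log2 ranges: in KO-TRAMP at 10 weeks Cdh5 -0.37 to 0.19 and Tek -0.24 to 0.76; in A537T-TRAMP at 30 weeks Cdh5 -0.25 to 0.26, Kdr -0.21 to 0.42, Vwf -0.20 to 0.67 and Esam -0.024 to 0.33; in the KO-TRAMP interaction Kdr -0.13 to 0.51, Flt1 -0.57 to 0.40 and Tie1 -0.15 to 0.31; in the A537T-TRAMP interaction Cd93 -0.76 to 0.025, Tek -1.11 to 0.037 and Emcn -0.28 to 0.22, and Emcn was 0.078 with a pseudocount of 5. The cause was not tested. Depth limits Emcn, Tie1 and Tek most, with as few as 6, 13 and 15 reads in a library.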

Other observations

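Podxl and S1pr1, outside the 10 members, were chosen here after their values were seen. Podxl encodes a sialomucin of endothelium and of some epithelia. Its log2 difference from WT-TRAMP was 1.29 (limma adjusted p = 0.71) in the knockout and 1.54 (adjusted p = 0.6) in the variant at 10 weeks, and 0.65 (adjusted p = 0.663) in the variant at 30 weeks. In the knockout at 30 weeks its groups overlapped, at 350 to 880 against 391 to 482 normalized counts, with a difference of 0.36 (SE 0.33, adjusted p = 0.587). S1pr1 had separate groups in every comparison, with the mutant line above. Over all genes this held in 5.77% for the knockout and 6.92% for the variant at 10 weeks. At 30 weeks it held in 10.8% for the knockout and 7.36% for the variant. At 10 weeks S1pr1 went from 12.99 ± 0.8 to 25.1 ± 3.1 normalized counts in the knockout table and from 11.7 ± 0.9 to 23.4 ± 7.3 in the variant table, and at 30 weeks from 26.9 ± 1.6 to 40.5 ± 5.4 in the variant table (SD, n = 3). None of these differences was called. The lines of an age share their WT-TRAMP libraries.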
